A study of Mus musculus with 8 samples.

Results

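Portal fibroblasts (PF) of mouse liver were compared between biliary fibrosis and a sham operation. The pair was chosen by its labels and holds 2 of the 8 arrays of the series, 1 array for PF of biliary fibrosis and 1 for sham PF. Each array measured 20677 named genes. The RNA came from cells purified from livers of adult Col1a1-GFP transgenic mice on the C57Bl6 background, in which a collagen promoter drives green fluorescent protein, and both groups carried the transgene. The labels name neither the surgery that gave biliary fibrosis nor the gate that isolated PF. The other 6 arrays are hepatic stellate cells (HSC) and mesothelial cells (MC) of biliary fibrosis, HSC and MC with no injury stated, vitamin A-negative GFP-positive cells (VitA-GFP+ cells) with no injury stated, and whole liver of a wild-type mouse. The HSC were sorted as vitamin A-positive cells and the MC as GPM6A-positive cells.

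Portal fibroblasts are collagen-producing cells of the connective tissue that surrounds the bile duct, portal vein and hepatic artery. They lie directly against the bile duct epithelium. When bile flow is blocked, bile duct cells proliferate and the surrounding fibroblasts can become contractile myofibroblasts that deposit scar collagen. The whole of a sorted fraction was measured, so a gene can be higher because more cells of one kind were in the fraction or because each cell held more of its RNA, and these cannot be told apart here.

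Each group was measured on 1 array, so that replicate error is unknown, no test could be made and the differences below compare single arrays. Levels are log2 intensities, and differences are PF of biliary fibrosis minus sham PF in log2 units. The term 4-fold is used where a difference is 2 or more in size and the larger level is not below the median of its array. By this rule 779 genes were 4-fold higher (3.77% of those measured) and 326 were 4-fold lower (1.58%). The counts given below for gene lists are to be read beside these shares. The median difference over all genes was -0.01. The arrays had close medians, 5.48 in PF of biliary fibrosis and 5.45 in sham PF. The ratio of 3' to 5' Gapdh probe sets measures how far the RNA was copied from its 3' end. It was 10.2 in PF of biliary fibrosis and 13.2 in sham PF. HSC and MC of biliary fibrosis had 5.68 and 13.8, whereas the arrays with no injury stated had 1.42 to 2.01.

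The arrays differed in sex-linked RNA. Ddx3y, a Y-linked helicase gene, had a level of 11.83 in PF of biliary fibrosis and 2.78 in sham PF, whereas Xist, which is transcribed from the inactive X chromosome of females, had 5.31 in PF of biliary fibrosis and 11.96 in sham PF. Male-specific RNA was therefore high on one array and female-specific RNA on the other, and the sex of the animals and the condition cannot be told apart. Among 10 genes with sex-biased expression in liver, 0 were 4-fold higher and 0 were 4-fold lower, with a median difference of 0.21. Only 3 of the 10 reached the array's median on each PF array, so the rule could call few of them. These counts therefore do not measure how far sex affects the other genes.

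Fibroblast genes were high on both arrays. Col1a1, which encodes the main chain of type I collagen, had a level of 13.49 in PF of biliary fibrosis and 13.22 in sham PF. Thy1, a surface protein used to mark portal fibroblasts, had 10.87 in PF of biliary fibrosis and 11.27 in sham PF, and Entpd2, the ATP-hydrolysing ectoenzyme of these cells, had 8.74 in PF of biliary fibrosis and 9.82 in sham PF. Of 22 portal fibroblast markers, 22 were at or above the array's median in PF of biliary fibrosis and 21 in sham PF. Their levels were mostly lower in PF of biliary fibrosis: 19 of 22 had a difference below 0, with a median of -1.08, although only Fbln1 (-2.34), encoding fibulin-1 of the extracellular matrix, and Clec3b (-3.18), encoding tetranectin, were 4-fold lower. Ptgds, a prostaglandin D synthase, was 4-fold higher (2.96).

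Of the 779 higher genes, 458 (58.8%) lay below the median of the sham PF array there, and of the 326 lower genes, 134 (41.1%) lay below the median of the array in PF of biliary fibrosis. The call rule itself favours genes with a low level on one array, so these shares are a description. The differences were also larger on the higher side. A difference of at least 3 was reached by 358 higher and 87 lower genes, and a difference of at least 5 by 69 higher and 4 lower genes.

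**Figure D1:**
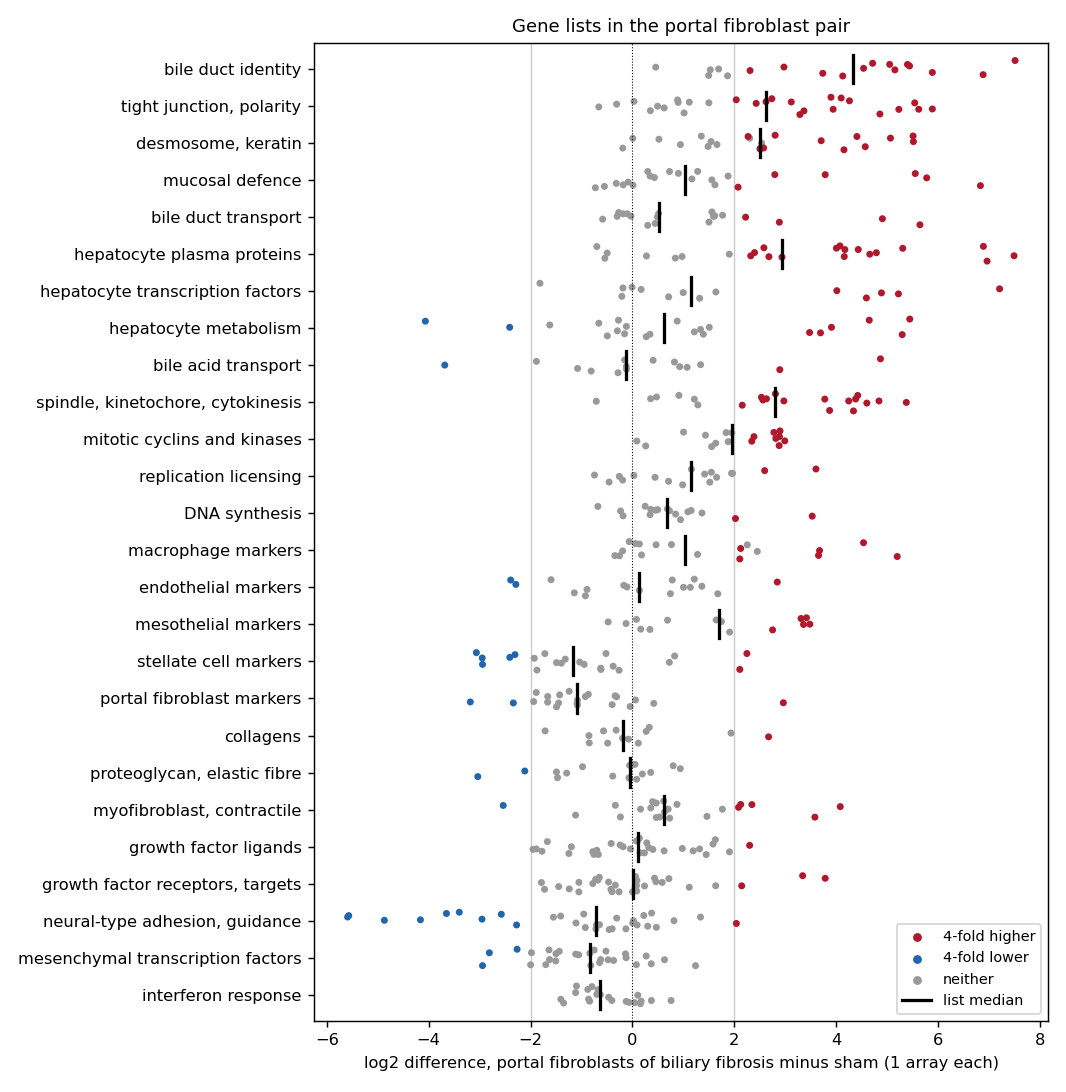
Log2 difference of each measured gene of the named lists, PF of biliary fibrosis minus sham PF, with 1 point per gene and a bar at the median of each list; the dotted line is the median of all genes (-0.01) and the grey lines mark 4-fold. Bile duct identity genes lie to the right of 0 throughout (median 4.33), while neural-type adhesion genes and mesenchymal transcription factors extend to the left (medians -0.71 and -0.83).

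Genes of bile duct epithelium made up the list with the highest median difference. Of 18 bile duct identity genes, 18 had a difference above 0 and 13 were 4-fold higher, with a median of 4.33. Over all genes 3.77% were 4-fold higher. The list was chosen with earlier results of these data known and includes Mmp7 and Cldn7, so its rank and counts are a description. Mmp7, a matrix metalloproteinase made by bile duct and other epithelia, had a level of 11.22 in PF of biliary fibrosis and 3.71 in sham PF. Its difference of 7.51 was the largest of any named gene after Ddx3y. Levels of Mmp7 on the other arrays were 8.38 in HSC of biliary fibrosis, 8.94 in MC of biliary fibrosis and between 3.87 and 5.42 on the 4 arrays with no injury stated. Thus Mmp7 was high on each fibrosis array and highest in PF.

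Transcription factors of the ductal lineage differed among themselves. Onecut2, a regulator of liver and bile duct development, had a level of 9.50 in PF of biliary fibrosis and 2.61 in sham PF, and the epithelial factor Ehf had 9.86 in PF of biliary fibrosis and 4.46 in sham PF. Grhl2, which drives epithelial junction genes, reached 9.04 in PF of biliary fibrosis and 6.74 in sham PF. Onecut1 was below the 4-fold rule, with a difference of 1.69. Sox9, which marks bile duct and progenitor cells, had a level of 10.26 in PF of biliary fibrosis and 9.80 in sham PF, so it was already high after the sham operation. The difference of Sox4 was 1.87.

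Surface and cytoskeletal markers of bile duct cells were higher as well. Epcam, an epithelial adhesion molecule, had a level of 9.85 in PF of biliary fibrosis and 5.13 in sham PF. Krt19, a keratin of bile duct and mesothelial cells, had a level of 10.22 in PF of biliary fibrosis and 6.48 in sham PF, below the 13.29 of MC with no injury stated and the 12.43 of VitA-GFP+ cells. Krt7 gave 10.12 in PF of biliary fibrosis and 5.99 in sham PF.

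Tight junctions seal epithelial sheets and are built from claudins, occludin and adaptor proteins. Of 27 tight junction and polarity genes, 16 were 4-fold higher and 0 lower, with a median of 2.62. The claudins themselves carried much of this. Cldn7 had a level of 10.13 in PF of biliary fibrosis and 4.24 in sham PF, Cldn6 had 9.95 in PF of biliary fibrosis and 4.33 in sham PF, and Cldn2, which forms a cation- and water-permeable pore, had 9.69 in PF of biliary fibrosis and 4.46 in sham PF. Cldn4, Cldn3 and Cldn8 were 4-fold higher too, at 3.90, 3.29 and 2.74, whereas Cldn1 (1.11), Cldn12 (0.49) and Cldn10 (-0.31) were not.

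Other junction components included genes of several roles. The transmembrane proteins Ocln (4.26), Marveld2 (4.86) and Marveld3 (3.12) and the adhesion molecule F11r (3.37) were 4-fold higher. So were the junction adaptor Cgn (4.10) and the apical polarity genes Pard6b (3.94), Patj (2.62), Crb3 (2.43) and Prkcz (2.04). The zonula occludens adaptor Tjp1, which many cell types share, differed less, with a level of 11.95 in PF of biliary fibrosis and 11.33 in sham PF. Esrp1, an epithelial splicing regulator, had 11.25 in PF of biliary fibrosis and 5.71 in sham PF, a difference of 5.54, whereas its paralogue Esrp2 was high on both arrays (10.47 in PF of biliary fibrosis and 9.57 in sham PF).

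Desmosomes anchor keratin filaments between epithelial cells. Of 22 desmosome, keratin and hemidesmosome genes, 12 were 4-fold higher and 0 lower, with a median of 2.51. Dsp, the desmosomal plaque protein, had a level of 12.44 in PF of biliary fibrosis and 6.93 in sham PF, and the desmosomal cadherins Dsc2 and Dsg2 differed by 4.41 and 4.15. Cdh1, the epithelial cadherin, had 11.44 in PF of biliary fibrosis and 6.38 in sham PF. The keratins of simple epithelia, Krt8 (4.57), Krt18 (5.51) and Krt23 (3.70), were higher. Keratins of stratified epithelia were mixed: Krt14 was 4-fold higher (2.51), while Krt5 (-0.19) and Krt6a (0.01) were near the floor on both arrays. Of the hemidesmosome and laminin genes, Itga6 (2.80) and Lamb3 (2.27) were 4-fold higher and Itgb4 (1.54) was not.

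Bile duct cells modify bile by moving chloride, bicarbonate, sugar and water. Here 4 of 19 transport and cilium genes were 4-fold higher and the median difference was 0.51. Cftr, the apical chloride channel, had a level of 9.49 in PF of biliary fibrosis and 3.85 in sham PF. Pkhd1, whose product fibrocystin sits on the primary cilium, had 10.10 in PF of biliary fibrosis and 5.20 in sham PF, and the glucose transporter Slc5a1 had 7.54 in PF of biliary fibrosis and 4.66 in sham PF. The potassium channel Kcnn4 differed by 2.22. The secretin receptor Sctr, the bicarbonate exchanger Slc4a2 and the water channel Aqp1 had differences of 0.51, -0.59 and -0.10 and were not 4-fold apart. Ano1, a calcium-activated chloride channel, was high on both arrays, at 12.10 in PF of biliary fibrosis and 10.33 in sham PF.

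Mucosal defence genes were higher in part, 6 of 22, with a median of 1.03. Lcn2, an iron-sequestering protein induced by injury, had a level of 11.80 in PF of biliary fibrosis and 4.97 in sham PF, with 9.97 in HSC and 9.82 in MC of biliary fibrosis. The acute-phase gene Saa3 had 11.92 in PF of biliary fibrosis and 6.15 in sham PF, and Il1rn, the antagonist of interleukin-1, had 8.49 in PF of biliary fibrosis and 2.94 in sham PF. The protease inhibitors Slpi (3.78) and Wfdc2 (2.79) and the mucin Muc1 (2.07) completed the group. Saa1 and Saa2, which liver makes in quantity, were near the floor in PF of biliary fibrosis (4.67 and 5.09) and in sham PF (3.94 and 4.66).

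**Figure D2:**
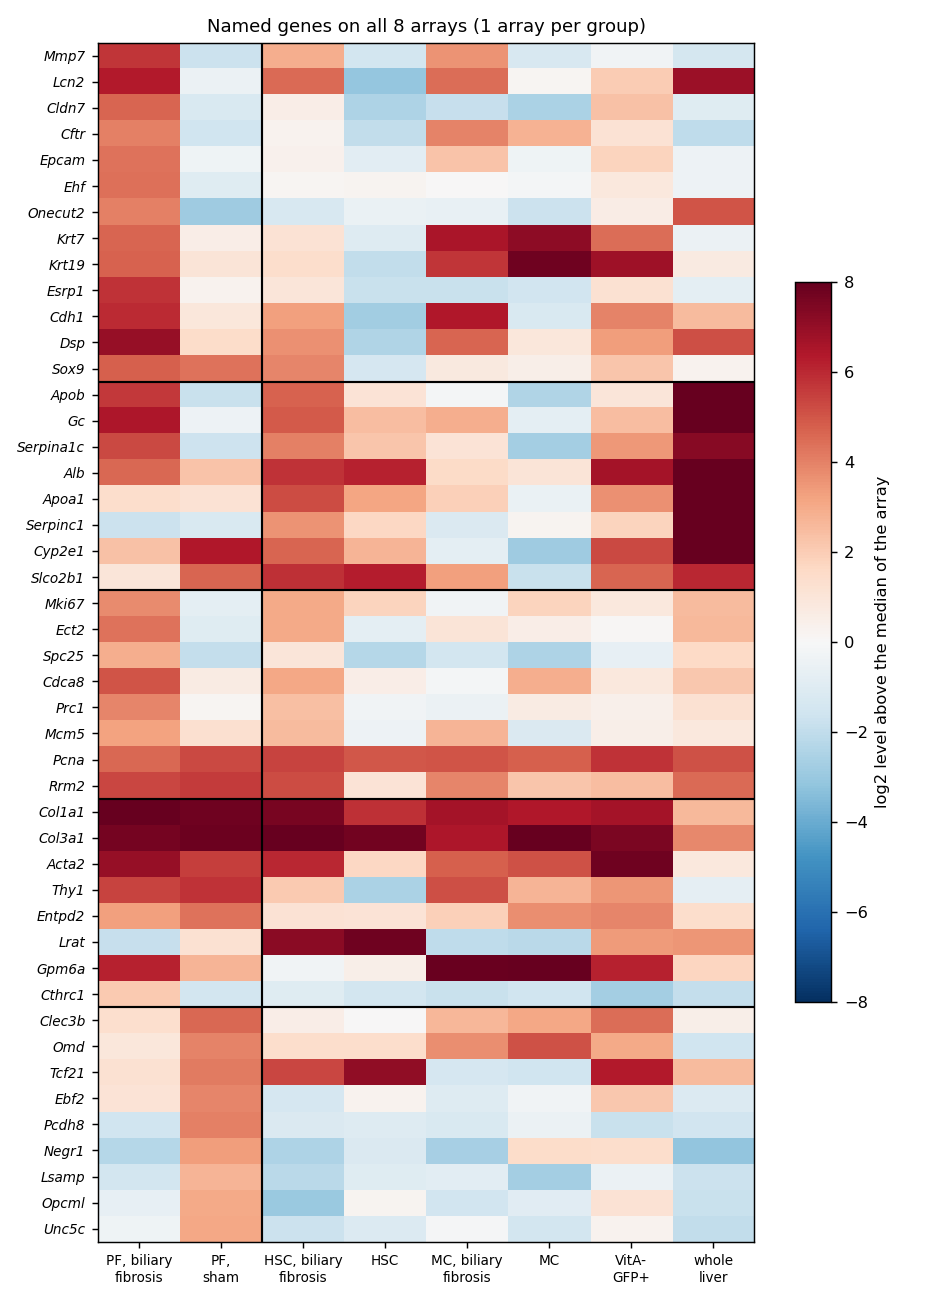
Log2 level above the array's own median for named genes on all 8 arrays, PF of biliary fibrosis and sham PF at the left; shades end at 8 and -8, and horizontal lines separate epithelial, hepatocyte, cell cycle, stromal and lower genes. Cldn7 and Esrp1 are highest in PF of biliary fibrosis, while Krt7 and Krt19 are as high or higher on the MC arrays.

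Hepatocyte genes were unevenly higher with biliary fibrosis. Hepatocytes are the parenchymal cells of the liver; they secrete plasma proteins and carry out urea, amino acid, drug and bile acid metabolism. Of 60 genes for hepatocyte plasma proteins, metabolism and bile acid transport, 24 were 4-fold higher and 3 were 4-fold lower, with a median of 1.14. The median level of the 23 plasma protein genes was 8.93 in PF of biliary fibrosis and 5.10 in sham PF, against 13.56 in whole liver.

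Plasma protein genes differed most, with 16 of 23 4-fold higher and a median of 2.94. Apob, the structural protein of very low density lipoprotein, had a level of 11.14 in PF of biliary fibrosis and 3.65 in sham PF. Gc, the vitamin D-binding protein, had 11.92 in PF of biliary fibrosis and 5.03 in sham PF, and Serpina1c, an alpha-1-antitrypsin gene of a family with near-identical copies that probes may not separate, had 10.77 in PF of biliary fibrosis and 3.81 in sham PF. All fibrinogen chains were higher, Fga by 4.79, Fgb by 4.43 and Fgg by 4.07. Alb, the most abundant hepatocyte product, had 10.06 in PF of biliary fibrosis and 7.73 in sham PF, a smaller difference of 2.32.

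Other plasma protein genes did not follow. Apoa1, the main protein of high density lipoprotein, had a level of 6.87 in PF of biliary fibrosis and 6.59 in sham PF, and Apoa2 had 5.64 in PF of biliary fibrosis and 6.34 in sham PF. Serpinc1, which encodes antithrombin, was at 3.76 in PF of biliary fibrosis and 4.26 in sham PF, although whole liver had 13.56. Apoc3 (0.97), Plg (0.84) and Itih3 (-0.54) were also less than 4-fold apart. Higher levels in PF of biliary fibrosis were thus not shared by the whole set of plasma protein genes.

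Metabolic genes were split further, 6 of 22 higher and 2 lower, with a median of 0.61. Fbp1 (4.65) and Pck1 (3.69), enzymes of glucose synthesis, Bhmt (3.91), of methionine metabolism, and Cps1 (3.48), of the urea cycle, were 4-fold higher. The next urea cycle enzyme, Otc, was at 2.42 in PF of biliary fibrosis and 2.72 in sham PF, against 12.88 in whole liver. The cytochromes Cyp3a11, Cyp2c29, Cyp1a2, Cyp8b1 and Cyp7a1, the last of which starts bile acid synthesis, were near the floor on both arrays, with differences of -0.49, -0.12, -0.15, -0.28 and -0.66. Cyp2e1, an ethanol-metabolising cytochrome, ran the other way, with 7.79 in PF of biliary fibrosis and 11.86 in sham PF. Cyp27a1 was 4-fold lower as well (8.11 in PF of biliary fibrosis and 10.52 in sham PF), but its probe sets gave differences of -2.41 and -0.96.

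Of 15 bile acid transporters 2 were 4-fold higher and 1 lower, with a median of -0.12. The export pumps Abcc2 (8.13 in PF of biliary fibrosis and 3.26 in sham PF) and Abcc3 (8.11 in PF of biliary fibrosis and 5.21 in sham PF) were 4-fold higher. Abcb11, the canalicular bile salt pump, stayed at 2.93 in PF of biliary fibrosis and 3.22 in sham PF. The carrier Slco2b1 was 4-fold lower, with 6.44 in PF of biliary fibrosis and 10.12 in sham PF, and Slc10a1, the sodium-dependent bile acid carrier, had 6.17 in PF of biliary fibrosis and 8.05 in sham PF, a difference of -1.89 that missed the 4-fold rule.

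Among 14 liver transcription factors, 5 were 4-fold higher and the median was 1.16. Hnf4a, a nuclear receptor central to hepatocytes and also present in other gut epithelia, had a level of 11.35 in PF of biliary fibrosis and 4.14 in sham PF; another probe set gave a difference of 2.89. One that carries no suffix for several transcripts gave -0.01 and lay below the median on both arrays. The homeobox gene Prox1 (5.22), the pioneer factors Foxa3 (4.89) and Foxa1 (4.59) and the nuclear receptor Nr5a2 (4.01) were the others. The bile acid receptor Nr1h4 (-0.01) and Cebpa (-0.19) were high on both arrays, at 8.32 and 9.82 in PF of biliary fibrosis and 8.33 and 10.01 in sham PF. Of 12 fetal liver genes 1 was 4-fold higher, Cd24a (2.97), and 1 lower, Dlk1, with 4.82 in PF of biliary fibrosis and 7.21 in sham PF, with a median of 0.31.

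**Figure D3:**
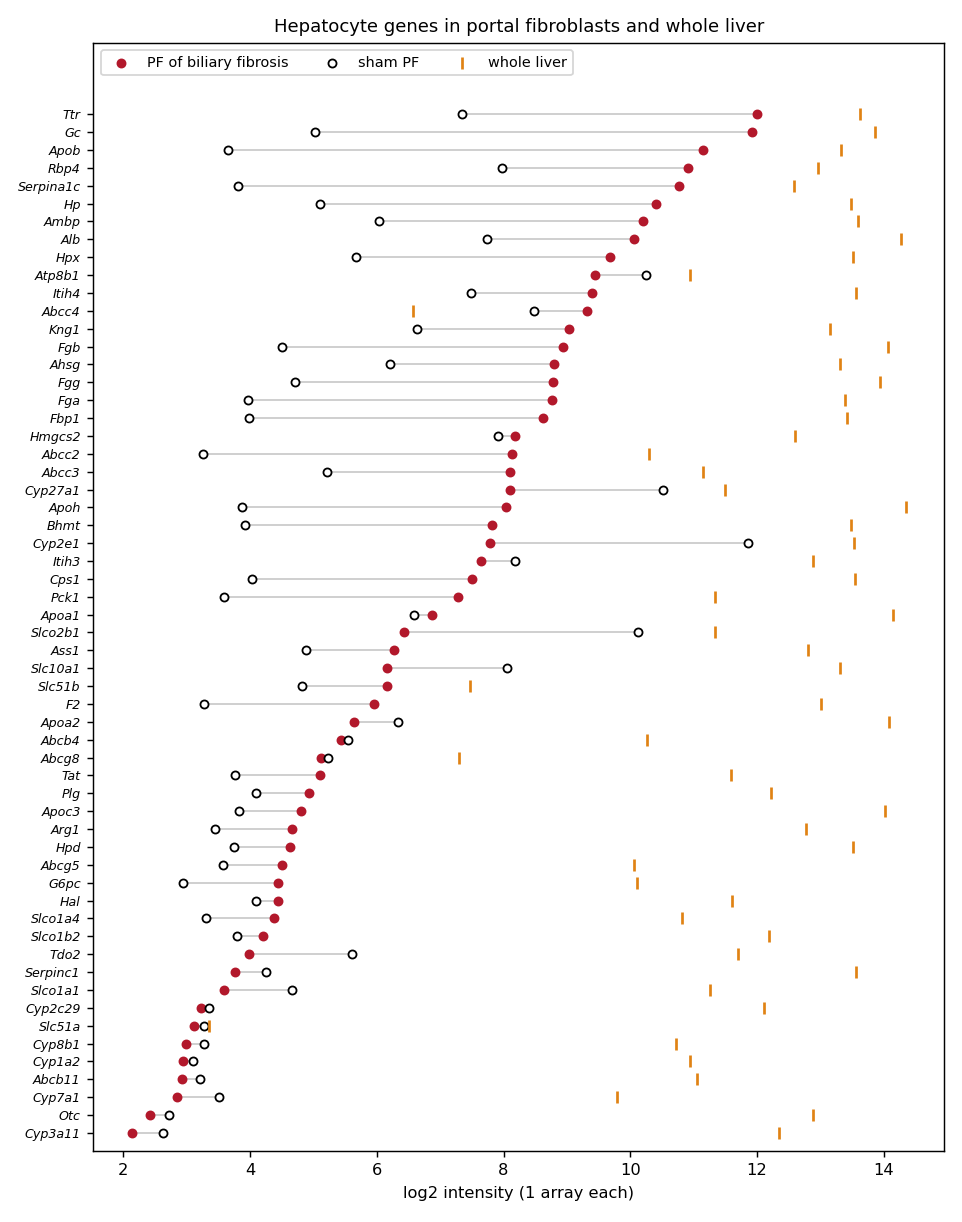
Log2 intensity of named hepatocyte genes in PF of biliary fibrosis (filled), sham PF (open) and whole liver (bars), 1 array each, ordered by the level in PF of biliary fibrosis. Ttr, Gc and Apob approach the whole liver level in PF of biliary fibrosis, whereas Cyp3a11, Cyp1a2, Otc and Serpinc1 near the bottom lie far under it in both fractions, and Cyp2e1, Cyp27a1 and Slco2b1 have the open symbol on the right.

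Cell division genes were higher, and those of mitosis more often than those of DNA replication. Dividing cells copy their DNA in S phase, with genes driven largely by E2F factors, and then express a second wave of genes for the spindle, kinetochore and cytokinesis in G2 and mitosis. Of 38 mitosis genes 23 were 4-fold higher and 0 lower, with a median of 2.55. Of 34 replication genes 4 were 4-fold higher and 0 lower, with a median of 0.79.

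Of 21 spindle and cytokinesis genes 15 were 4-fold higher, with a median of 2.81. That median depends on the probe sets: it was 1.64 with the mean of all probe sets of a gene and 1.21 with only those that carry no suffix for several transcripts, where replication licensing genes had 1.15. Ect2, an exchange factor that triggers cytokinesis, had a level of 9.83 in PF of biliary fibrosis and 4.46 in sham PF. Spc25, a kinetochore subunit, had 8.41 in PF of biliary fibrosis and 3.58 in sham PF, and Mki67, the proliferation antigen Ki-67, had 9.25 in PF of biliary fibrosis and 4.65 in sham PF. Cdca8 and Incenp, both of the chromosomal passenger complex, differed by 4.38 and 2.56. Prc1, which bundles microtubules of the central spindle, had 9.38 in PF of biliary fibrosis and 5.60 in sham PF. Cep55, a midbody protein outside these lists, had 11.85 in PF of biliary fibrosis and 5.33 in sham PF, among the 12 largest differences of all (6.52).

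Of 17 mitotic kinases, cyclins and regulators 8 were 4-fold higher, with a median of 1.95, or 1.89 and 1.72 under the same changes of probe sets, so neither mitosis list stood above the other in every setting. Melk (2.99), Cdk1 (2.88), the phosphatase Cdc25c (2.88), Ccna2 (2.81), Ttk (2.78), Ccnb2 (2.38) and Pbk (2.34) passed the rule on the probe set used and were at least 2-fold higher on the others at the minimum level. Cdc20 passed with 2.90, but its other probe set gave 0.45. The kinase Plk1 had 5.60 in PF of biliary fibrosis and 5.52 in sham PF, and Foxm1, a factor that drives mitotic genes, had a difference of 0.26. Not every mitotic regulator was therefore higher. Top2a was 4-fold higher (4.42) on the probe set used. One that carries no suffix for several transcripts gave -0.76 and lay below the median on both arrays.

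Replication genes were mostly present on both arrays. Pcna, the sliding clamp of DNA polymerase, had a level of 10.04 in PF of biliary fibrosis and 10.72 in sham PF. Rrm2, a subunit of ribonucleotide reductase, had 10.80 in PF of biliary fibrosis and 11.04 in sham PF, and the helicase subunit Mcm4 had 10.56 in PF of biliary fibrosis and 10.82 in sham PF. Of the other helicase subunits, Mcm5 (1.96), Mcm2 (1.94), Mcm6 (1.55), Mcm3 (1.52) and Mcm7 (0.98) had positive differences that missed the rule. The 4 that passed were Gmnn (3.60), the inhibitor of origin licensing that accumulates until mitosis, Uhrf1 (3.53), Mcm10 (2.59) and Tk1 (2.02). Among G1 regulators, the repressors E2f7 (10.10 in PF of biliary fibrosis and 4.99 in sham PF) and E2f8 (7.07 in PF of biliary fibrosis and 3.23 in sham PF) and the inhibitor Cdkn2b (2.36) were 4-fold higher, and Ccnd3 was lower by less than 4-fold (-1.95).

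**Figure D4:**
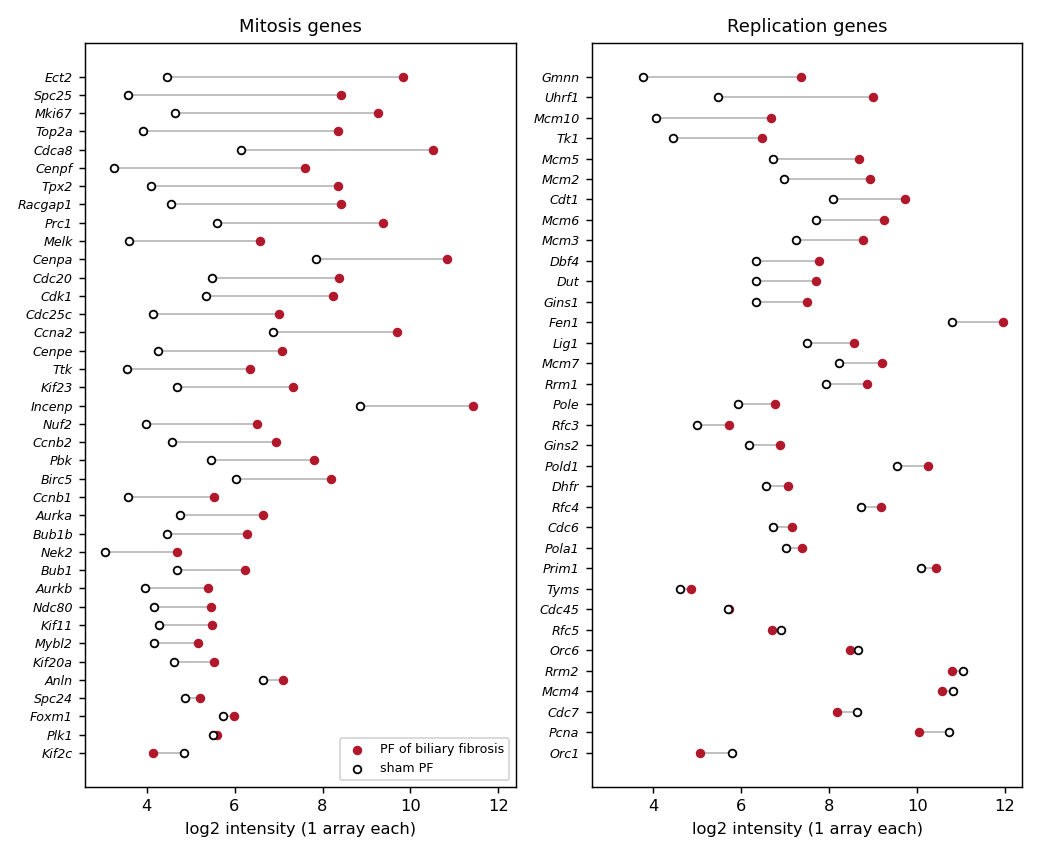
Log2 intensity of 38 mitosis genes and 34 replication genes in PF of biliary fibrosis (filled) and sham PF (open), 1 array each, ordered by difference. Most mitosis genes are well to the right in PF of biliary fibrosis, whereas the lines of replication genes are short and several, such as Pcna, Mcm4 and Rrm2, have the open symbol to the right.

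The promoters of these genes are shown because mitotic and replication genes carry different known elements, so that the sequence class of each gene is independent of its array value. Windows run from 250 bases before to 50 bases after the start of the gene and are RefSeq sequences of build GRCm38.p6. The cell cycle genes homology region (CHR) was searched as TTTGAA and the E2F element as TTTNNCGC, both on either strand, and by their letters the motifs cannot overlap each other. Capitals mark CHR in the first 3 windows and E2F in the last 2, where overlapping matches on opposite strands run together.
Cdca8 (GRCm38.p6, chr4:124936868-124937167, minus strand): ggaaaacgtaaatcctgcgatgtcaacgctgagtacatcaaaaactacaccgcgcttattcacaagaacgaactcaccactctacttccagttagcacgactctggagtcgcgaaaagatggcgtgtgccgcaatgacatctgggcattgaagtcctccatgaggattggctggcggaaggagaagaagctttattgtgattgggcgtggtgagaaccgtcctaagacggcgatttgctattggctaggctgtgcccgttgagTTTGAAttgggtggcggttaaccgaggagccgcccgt
Prc1 (GRCm38.p6, chr7:80294201-80294500, plus strand): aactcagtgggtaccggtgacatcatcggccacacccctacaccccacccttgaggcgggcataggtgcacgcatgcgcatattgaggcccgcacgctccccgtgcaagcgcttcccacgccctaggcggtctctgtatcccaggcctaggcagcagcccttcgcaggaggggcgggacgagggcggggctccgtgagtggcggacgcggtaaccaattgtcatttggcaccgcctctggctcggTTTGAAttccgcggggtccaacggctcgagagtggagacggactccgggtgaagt
Spc25 (GRCm38.p6, chr2:69206164-69206463, minus strand): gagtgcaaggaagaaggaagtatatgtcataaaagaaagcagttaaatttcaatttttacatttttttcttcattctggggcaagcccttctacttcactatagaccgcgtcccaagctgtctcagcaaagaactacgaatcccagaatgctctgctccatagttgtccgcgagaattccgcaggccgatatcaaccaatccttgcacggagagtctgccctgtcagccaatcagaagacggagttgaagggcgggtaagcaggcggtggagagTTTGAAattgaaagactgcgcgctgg
Mcm5 (GRCm38.p6, chr8:75109259-75109558, plus strand): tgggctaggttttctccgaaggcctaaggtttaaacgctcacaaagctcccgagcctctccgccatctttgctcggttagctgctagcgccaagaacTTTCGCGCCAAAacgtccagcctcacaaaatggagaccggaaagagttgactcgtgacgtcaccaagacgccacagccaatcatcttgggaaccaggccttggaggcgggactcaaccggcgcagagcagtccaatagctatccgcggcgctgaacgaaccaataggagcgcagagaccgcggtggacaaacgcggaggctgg
Mcm6 (GRCm38.p6, chr1:128359656-128359955, minus strand): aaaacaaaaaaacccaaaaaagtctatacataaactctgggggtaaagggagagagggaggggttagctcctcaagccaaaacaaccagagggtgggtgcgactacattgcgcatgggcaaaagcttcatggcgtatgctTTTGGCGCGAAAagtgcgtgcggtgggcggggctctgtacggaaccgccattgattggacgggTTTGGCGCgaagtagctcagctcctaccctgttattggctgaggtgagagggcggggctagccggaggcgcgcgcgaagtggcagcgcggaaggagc
Counted in bases from the start of the gene, with negative values upstream, CHR begins at 13 in Cdca8, at -5 in Prc1 and at 24 in Spc25. E2F matches begin at -153 and -149 in Mcm5, and at -110, -106 and -47 in Mcm6.

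Motif classes separated the lists more clearly than the array values did within them. CHR was found in 21 of 29 mitosis genes with a window (72.4%) and in 5 of 28 replication genes (17.9%), against 20.2% of the 27025 genes with a window. E2F was found in 2 of 29 mitosis genes (6.90%) and in 13 of 28 replication genes (46.4%), against 5.93% of all. Between -60 and 40 bases from the start, CHR was found in 19 of 29 mitosis genes (65.5%) and 6.15% of all genes. This interval was not part of the plan. Its upper bound is the position in Bub1b, the furthest downstream of the nearest matches in these mitosis genes. The contrast can therefore be inflated and is a description. Taking both lists together, 12 of 24 genes with CHR alone were 4-fold higher, with a median difference of 2.16. Among 13 with E2F alone, 1 was 4-fold higher (Uhrf1), with a median of 0.98. Both motifs were found in Cdk1 and Racgap1, and both genes were 4-fold higher (2.88 and 3.87). Of 18 with neither motif 6 were 4-fold higher, with a median of 1.46. All genes with E2F alone were replication genes and most with CHR alone were mitosis genes. The pooled counts thus largely repeat the difference between the lists. The replication genes with CHR alone were not 4-fold higher: Mcm2 (1.94), Dbf4 (1.42), Fen1 (1.15), Cdc45 (0.03) and Cdc7 (-0.46). Inside the mitosis lists, CHR was found in 14 of 18 genes that were 4-fold higher and in 7 of 11 that were not. Over all 560 higher genes with a window the share with CHR was 20.2%, and over 216 lower genes it was 19.4%. A match describes the letters in the window and was not tested as a binding site.

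Stromal genes differed less than epithelial ones. Of 13 collagen genes, 1 was 4-fold higher (7.69%, against 3.77% of all genes) and 0 lower (against 1.58%), with a median of -0.19. That gene was Col8a1, a network-forming collagen, with a level of 11.77 in PF of biliary fibrosis and 9.10 in sham PF. Col12a1, which binds the surface of collagen fibrils, had 10.89 in PF of biliary fibrosis and 8.96 in sham PF. Of the 13 genes, 8 had a difference below 0. Col14a1 differed by -1.71 on the probe set used, which missed the rule, and by -2.35 and -2.29 on its other probe sets. Col6a3 differed by -0.85. Col1a2 had 13.16 in PF of biliary fibrosis and 13.24 in sham PF, and Col3a1 had 13.13 in PF of biliary fibrosis and 13.32 in sham PF, so both were high on each array.

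Myofibroblast genes were higher in part, 5 of 22, with 1 lower and a median of 0.62. Acta2, the smooth muscle actin that defines myofibroblasts, had a level of 12.46 in PF of biliary fibrosis and a difference of 1.46 from sham PF, which missed the rule. Rgs4 (4.08), a regulator of G protein signals, Cthrc1 (3.58), a secreted protein of activated fibroblasts, Actg2 (2.34), Cspg4 (2.12) and S100a4 (2.08) passed. Cthrc1 had 7.59 in PF of biliary fibrosis and 4.01 in sham PF, and between 2.96 and 4.45 on the other 6 arrays. Islr was 4-fold lower, with 8.99 in PF of biliary fibrosis and 11.53 in sham PF. Of 17 proteoglycan and elastic fibre genes, 0 were higher and 2 lower, the small leucine-rich proteoglycans Omd (-3.04) and Podn (-2.11).

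Signals between fibroblasts and bile duct cells were examined as ligands and receptors. Of 31 growth factor and cytokine ligands, 1 was 4-fold higher and 0 lower, with a median of 0.10. The higher share of 3.23% is near the 3.77% of all genes, of which 1.58% were lower. Hbegf, a ligand of the epidermal growth factor receptor, had a level of 10.11 in PF of biliary fibrosis and 7.81 in sham PF. Pdgfc had 12.41 in PF of biliary fibrosis and 10.50 in sham PF, just under the rule at 1.90. Fgf7, a fibroblast product that acts on epithelia, had 7.64 in PF of biliary fibrosis and 9.60 in sham PF, and Il6 had a difference of -1.89, both just short of 4-fold lower. Jag1, a Notch ligand of the portal tract, was high on both arrays, at 12.62 in PF of biliary fibrosis and 11.99 in sham PF. Shh and Ihh were near the floor on both, at 4.22 and 4.21 in PF of biliary fibrosis and 4.92 and 4.25 in sham PF.

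Of 31 receptors and pathway targets, 3 were 4-fold higher (9.68%, against 3.77% of all genes) and 0 lower (against 1.58%). Their median was 0.00, and the 3 higher ones are tyrosine kinase receptors found on epithelia. Erbb3 had a level of 9.64 in PF of biliary fibrosis and 5.85 in sham PF. Met, the receptor of hepatocyte growth factor, had 10.87 in PF of biliary fibrosis and 7.52 in sham PF, and Fgfr3 had 9.04 in PF of biliary fibrosis and 6.89 in sham PF. The Hedgehog target Gli1 had 6.83 in PF of biliary fibrosis and 7.55 in sham PF, and the Wnt target Axin2 had 7.96 in PF of biliary fibrosis and 9.75 in sham PF. Pdgfra, a receptor of fibroblasts, had 11.51 in PF of biliary fibrosis and 12.75 in sham PF. For Itgb6, a subunit of an epithelial integrin, the probe set used was near the floor on both arrays, at 3.93 in PF of biliary fibrosis and 3.85 in sham PF, but a second one gave a difference of 2.78.

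Genes that were lower in PF of biliary fibrosis included a group best known from neurons. Of 31 neural-type adhesion and guidance genes, 9 were 4-fold lower and 1 higher, with a median of -0.71. Over all genes 1.58% were lower and 3.77% higher. The list was chosen with earlier results of these data known and includes the kinase gene Mapk10, so the count is a description. Pcdh8, a protocadherin, had a level of 3.90 in PF of biliary fibrosis and 9.49 in sham PF, and lay between 3.80 and 5.08 on the other 6 arrays. It was therefore high on the sham PF array alone. Negr1, a neuronal growth regulator of the IgLON family, had 3.22 in PF of biliary fibrosis and 8.79 in sham PF, with 7.08 in VitA-GFP+ cells and 6.97 in MC with no injury stated. Its relatives Opcml (4.84 in PF of biliary fibrosis and 8.50 in sham PF) and Lsamp (-4.16) were lower too, and Ntm, the remaining member of that family in the list, had a difference of -1.55.

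The kinase gene Mapk10 (-4.87) and the netrin receptor Unc5c (-3.40) were lower, as were Sema3a (-2.57), a repulsive guidance ligand, and Cadm3 (-2.27). Pcdh9 was lower on the probe set used (-2.95) but not on its other one (-0.10). Other guidance genes were high on both arrays, among them Slit2, with 11.49 in PF of biliary fibrosis and 12.41 in sham PF, and Slit3, with 10.34 in PF of biliary fibrosis and 10.32 in sham PF. Cdh2, the neural cadherin, was the member that was 4-fold higher, with 10.93 in PF of biliary fibrosis and 8.89 in sham PF.

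Few mesenchymal transcription factors passed the rule. Of 28 factors, 23 had a difference below 0, 3 were 4-fold lower and 0 higher, with a median of -0.83. Tcf21, a factor of stellate cells and other fibroblasts, had a level of 6.68 in PF of biliary fibrosis and 9.63 in sham PF. Ebf2 had 6.56 in PF of biliary fibrosis and 9.37 in sham PF, and Nr2f1 had 7.05 in PF of biliary fibrosis and 9.31 in sham PF. Osr2 (-1.98) was just short of the rule, whereas Twist1 (0.37), Snai2 (0.08) and Prrx1 (-0.14) were close to level. The lowest genes outside these lists included the amino acid transporter Slc36a2 (5.38 in PF of biliary fibrosis and 10.22 in sham PF), the acyl-CoA synthetase Acsbg1 (4.35 in PF of biliary fibrosis and 8.76 in sham PF) and the orphan nuclear receptor Esrrg (3.81 in PF of biliary fibrosis and 8.23 in sham PF). Pm20d1 had a difference of -4.79 on the probe set used. One that carries no suffix for several transcripts gave 0.98 and lay below the median on both arrays.

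**Figure D5:**
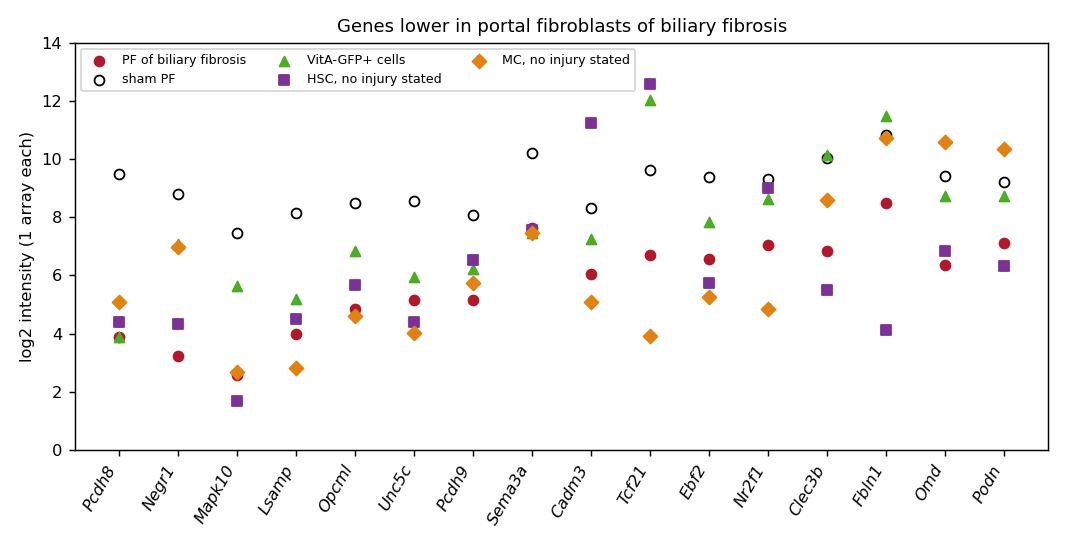
Log2 intensity of 16 genes that were 4-fold lower in PF of biliary fibrosis, on the 2 PF arrays and the arrays of VitA-GFP+ cells, HSC and MC with no injury stated, 1 array each. For Pcdh8 and Unc5c the sham PF array lies above the others, whereas Tcf21 and Cadm3 are highest in HSC and Omd and Podn in MC.

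Markers of other cell types differed along with the epithelial and hepatocyte genes. Of 18 macrophage markers 6 were 4-fold higher and 0 lower, with a median of 1.02, and the log2 of their summed intensity was 13.14 in PF of biliary fibrosis and 9.79 in sham PF. Csf1r, the receptor of macrophage growth factor, had a level of 12.20 in PF of biliary fibrosis and 7.67 in sham PF, and C1qb had 9.95 in PF of biliary fibrosis and 4.75 in sham PF. Kupffer cell genes stayed near the floor, Clec4f at 4.40 in PF of biliary fibrosis and 4.46 in sham PF and Vsig4 at 3.22 in PF of biliary fibrosis and 3.05 in sham PF. Of 14 mesothelial markers 5 were 4-fold higher and 0 lower, with a median of 1.69 and a log2 summed intensity of 14.46 in PF of biliary fibrosis and 13.78 in sham PF. Gpm6a, on which MC were sorted, had 11.64 in PF of biliary fibrosis and 8.16 in sham PF, against 13.28 and 13.52 on the MC arrays.

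For 22 stellate cell markers 2 were higher and 5 lower, with a median of -1.18 and a log2 summed intensity of 13.86 in PF of biliary fibrosis and 14.29 in sham PF. Lrat, the enzyme that stores vitamin A in stellate cells, had a level of 3.63 in PF of biliary fibrosis and 6.69 in sham PF, against 12.68 and 13.26 on the HSC arrays. Rgs5 (2.25) and Colec10 (2.11) were the higher ones. Over all genes 3.77% were higher and 1.58% lower, so counts of 1 or 2 in the next lists say little. Of 17 endothelial markers 1 was higher, Esam (2.84), and 2 were lower, Dnase1l3 (-2.39) and Tek (-2.29), with a median of 0.14. The lymphocyte and granulocyte list had 2 of 17 markers higher, Coro1a (2.20) and Cd52 (2.05), with a median of 0.50, and the 8 class II antigen presentation genes had 0 higher and 0 lower with a median of 0.49. The log2 summed intensity of 18 bile duct identity genes was 15.22 in PF of biliary fibrosis and 12.06 in sham PF, and that of 23 plasma protein genes was 14.43 in PF of biliary fibrosis and 10.81 in sham PF. Whether other cell types in the sorted fraction account for any gene group above was not tested.

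Several response programmes had few or no 4-fold differences. Over all genes 3.77% were higher and 1.58% lower, so few calls are met in lists of this size. Of 21 interferon response genes 0 were higher and 0 lower, but 15 had a difference below 0. Their median was -0.63, against -0.01 over all genes. Of 23 immediate early genes 0 were higher and 0 lower, 18 had a difference below 0, and the median was -0.21. Fos and Egr1, which respond within minutes to cell stress, were high on both, at 12.98 and 13.62 in PF of biliary fibrosis and 13.28 and 13.71 in sham PF. Of 18 oxidative stress and detoxification genes 0 were higher and 0 lower (median 0.32). In 23 chemokine and cytokine genes the median was -0.05. Tslp, with a level of 7.24 in PF of biliary fibrosis and 9.56 in sham PF, and Cxcl12, with 10.59 in PF of biliary fibrosis and 12.77 in sham PF, were 4-fold lower. Cxcl9 was 4-fold higher on the probe set used (3.12).

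The fibrosis arrays of HSC and MC were compared with HSC and MC for which no injury is stated, since a sham array was not used for either. In the HSC pair 1220 genes were 4-fold higher (5.90%) and 648 lower (3.13%), and in the MC pair 1283 were higher (6.20%) and 967 lower (4.68%). These pairs share no array with the PF pair. The Gapdh ratio differed within them, 5.68 with fibrosis and 1.75 without in HSC, and 13.8 and 2.01 in MC. Injury and this ratio cannot be told apart in those pairs. Of the 779 genes higher in PF, 263 were higher in HSC too, which is 33.8% of the PF genes and 21.6% of the HSC genes, and 13 were lower there. With MC, 154 were shared in the same direction, 19.8% of the PF genes and 12% of the MC genes, and 40 went the opposite way. In all 3 pairs 85 genes were higher. Wfdc18, C1qb and Cdh1 were among those whose smallest difference over the pairs was largest. Wfdc18, a small secreted protease inhibitor, had a level of 11.85 in PF of biliary fibrosis and 5.05 in sham PF, with 9.79 in HSC of biliary fibrosis and 4.07 in HSC with no injury stated, and 9.89 in MC of biliary fibrosis and 3.19 in MC with no injury stated.

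Lower genes were shared less, by their share of the PF genes. Of the 326 genes lower in PF, 20 were lower in HSC (6.13% of the PF genes and 3.09% of the HSC genes). Over all genes 3.13% were lower in HSC. Another 27 were higher there (8.28%, against 5.90% of all genes). In MC 40 were lower (12.3%, against 4.68% of all genes) and 23 higher (7.06%, against 6.20%). In all 3 pairs 9 genes were lower. The differences between pairs were not tested.

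The higher and lower genes also sat differently on the 6 arrays outside the pair. Whole liver was the highest of those 6 arrays for 36.6% of the higher genes, against 22.9% of all genes, and HSC with no injury stated for 4.11%, against 12.4% of all genes. For the lower genes the VitA-GFP+ cells were highest in 34.7%, against 10.2% of all genes. The median level of the lower genes was 7.28 in VitA-GFP+ cells, between the 5.81 of PF of biliary fibrosis and the 8.60 of sham PF. The PF levels themselves set the calls. By the rule each lower gene reached the array's median in sham PF, and each higher gene did so in PF of biliary fibrosis. Of all genes 58.1% and 59.5% did so. The called genes and all genes are thus unlike sets, and these shares are a description.

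Probe sets of one gene give a check on the measurement, though not on the animals. Among higher genes with several probe sets at the minimum level (211), 156 had every one of them at least 2-fold higher and 23 had one of opposite sign. Among such lower genes (98), 71 had every one at least 2-fold lower and 7 had one of opposite sign.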

How the data were processed

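RNA of sorted cells and whole liver was hybridised to Affymetrix mouse genome arrays after Nugen Ovation amplification of 20 ng total RNA, per the labels' protocols. The authors deposited intensity values on a linear scale, for which the submitters' processing notes name Partek and RMA. Software versions, and whether RMA ran on the 8 arrays together, are not given in the sources used here. The log2 of each deposited intensity was taken here, although a log2 scale had been assumed in the plan. Of 45101 probe sets, 64 were controls, 38011 named 1 gene, 1280 named several and 5746 named none; symbols of 35012 were matched by gene ID. For a gene with several probe sets, the one with the highest mean over the 8 arrays was used.

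Calls required a log2 difference of 2 or more in size and a larger level not below that array's median, taken without control probe sets. With 1 array per group no test was possible. The number of arrays, 1 per group, limits the precision. The code of the call rule was run on simulated data with planted differences and noise of assumed size. That run checks the code only and says nothing of the replicate error of these arrays. The text names the 12 largest differences in each direction, the 4 largest in each list, genes of set interest, further list members described by role, and up to 4 genes shared by the 3 fibrosis pairs. Some genes of these lists count in the totals but are not reported by name here. Members and lists were chosen with earlier results of these data known. Promoter windows are RefSeq sequences of build GRCm38.p6. The alternatives changed the normalization, the probe sets, the minimum level, the fold, the comparison array and the sex-linked genes. Python 3.11.15, numpy 2.4.6, pandas 2.3.3 and matplotlib 3.10.9 were used.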

Additional observations from a re-analysis of the deposited data

Results flagged for a closer look

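Probe sets without a single gene name were outside the comparison. Of 5746 that name no gene, 66 were 4-fold higher in PF of biliary fibrosis and 121 were lower. Of 1280 that name several genes, 31 were higher and 23 lower.

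Several named genes were 4-fold apart in the PF pair and 4-fold apart the opposite way in the HSC or MC pair. Of the 779 genes higher in PF, 5.13% were lower in MC and 1.67% in HSC, against 4.68% and 3.13% of all genes. Of the 326 lower in PF, 7.06% were higher in MC and 8.28% in HSC, against 6.20% and 5.90% of all genes. The genes named here are examples. These contrasts of pairs were not tested, and there is 1 array per group. In the HSC and MC pairs, an array with no injury stated and a lower Gapdh ratio stands in place of a sham. Some dividing-cell genes went opposite ways: Mki67 differed by 4.60 in the PF pair and -2.25 in the MC pair, and Cep55 by 6.52 in the PF pair and -2.61 in the MC pair. Some genes that mesothelial cells also express did so too. Krt19 differed by 3.74 in the PF pair and -2.22 in the MC pair, the mesothelial factor Bnc1 by 3.36 in the PF pair and -2.21 in the MC pair, and Erbb3 by 3.78 in the PF pair and -2.65 in the MC pair. Esam, an adhesion molecule of endothelium, differed by 2.84 in the PF pair, by -2.40 in the HSC pair and by -2.03 in the MC pair.

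Other named genes were lower in the PF pair and higher in another, or the reverse. Cxcl12, a chemokine of stromal cells, differed by -2.18 in the PF pair and 3.26 in the MC pair. The carrier Slco2b1 differed by -3.69 in the PF pair and 4.95 in the MC pair. In the HSC pair Fbln1 and the cytokine Tslp differed by 2.64 and 2.12, against -2.34 and -2.32 in the PF pair. Cxcl9, an interferon-induced chemokine, differed by 3.12 in the PF pair and -2.22 in the HSC pair.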

How the results depend on the processing

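No paired analysis was possible because each group holds 1 array, and no replicate could be left out. The counts of 779 higher and 326 lower genes became 1908 and 1397 at 2-fold, and 358 and 87 at 8-fold, so that higher genes made up 57.7% and 80.4% of calls, against 70.5% at 4-fold. With the 75th percentile as minimum level 471 were higher and 222 lower. When VitA-GFP+ cells stood in for the sham array, 795 were higher and 810 lower, 404 and 104 of them shared with the main comparison. The median of all genes then shifted to 0.18 and higher genes made up 49.5%. The Gapdh ratio was 1.56 in VitA-GFP+ cells and 10.2 in PF of biliary fibrosis, so this comparison also mixes arrays of unlike RNA copying. Under the other alternatives the higher count lay between 578 (mean of all probe sets) and 819 (no minimum level), and the lower count between 247 and 342.

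The median differences of lists moved by over 0.5 in 7 cases and by less in 133. With the mean of all probe sets, tight junction genes had 1.79, desmosome and keratin genes 1.96, spindle genes 1.64 and sex-linked genes 3.12. With only probe sets that carry no suffix for several transcripts, liver transcription factors had 0.58, plasma protein genes 4.04 and spindle genes 1.21. Named genes reversed in 3 cases under that setting, Hnf4a to -0.0114, Top2a to -0.76 and Pm20d1 to 0.98. Each of these values came from a probe set below the median on both arrays. Of the limits, the single array per group weighs on each value, the sexes of the PF arrays differ, and probe sets of one gene disagreed in sign for 23 higher and 7 lower genes.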

Other observations

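Gene families were compared by the stem of their symbols, a search made after the data were seen, over 251 stems with at least 10 measured genes. The Rassf family, adaptors with a Ras-association domain, had the highest share: 5 of 10 members were 4-fold higher (Rassf10, Rassf4, Rassf9, Rassf6 and Rassf7) and 1 was lower (Rassf1), whereas 3.77% of all genes were higher. Of 10 Wfdc genes, small secreted protease inhibitors, 4 were higher (Wfdc18, Wfdc2, Wfdc21 and Wfdc15b), and of 13 immunoglobulin kappa variable genes 5 were higher. The stems Igsf (4 of 10) and F (6 of 17) had shares of like size. Of 23 claudins 7 were higher, Cldn23 besides those described above. On the lower side the counts were small, and 1.58% of all genes were 4-fold lower. The stem Pcdh had 2 of 12 lower and 1 higher, and Prdm had 2 of 13 lower. Of 13 carboxylesterases 2 were lower (Ces5a and Ces1d), as were 2 of 14 Abca transporters (Abca8b and Abca8a). The stem Rgs had 3 of 21 lower and 3 higher. Members of a family can share probe sequence, and immunoglobulin genes are near-identical copies, so these counts are uncertain.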
